A study of Mus musculus with 18 samples.

Results

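Ifit1, Ifit2, Ifit3 and Rsad2 are antiviral genes that interferons induce, and their transcript levels were compared between 9 immune cell populations taken from mice after an injection of interferon gamma (IFNg). The 4 genes were chosen by their measured log2 levels across these populations, in particular in granulocytes, macrophages and NK cells, and each was read from the 1 probe set of the array that names it and no other gene. They are 4 of 19752 genes, and 4 of 24922 probe sets, on the Affymetrix Mouse Gene 1.0 ST array, whose probes lie along whole transcripts. Because the members were selected on these values, their levels and differences are given as a description, without a test.

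The Ifit genes encode tetratricopeptide-repeat proteins of the cytoplasm. Among these, IFIT1 binds RNA ends lacking methyl marks of the host cap and blocks translation of such RNA. Rsad2 encodes viperin, a radical SAM enzyme that turns the nucleotide CTP into a form that stops viral RNA polymerases. Type I interferons induce all of them through ISGF3, a complex that contains STAT2 and IRF9 and binds the interferon-stimulated response element (ISRE), whereas IFNg acts mainly through another element, the gamma-activated site (GAS).

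All groups share 1 treatment: male B6 mice (C57BL/6) aged 6 weeks received 10000 U of IFNg under the skin, and cells were sorted by FACS into TriZol 2 h later. Each population has 2 arrays. The spleen gave dendritic cells (DC, CD11c+ MHCII+ Flt3+), granulocytes (GN, Ly6G+), natural killer cells (NK, NK1.1+ TCRB-), NKT cells (NKT, NK1.1+ TCRB+), CD4+ T cells (T4, CD4+ TCRB+), CD8+ T cells (T8, CD8+ TCRB+), gamma delta T cells (Tgd, TCRgd+ TCRB-) and CD25+ CD4+ T cells (Treg, CD4+ TCRB+ CD25+). Macrophages (MF, F4/80+ ICAM2+) were the exception: they came from the peritoneal cavity, so tissue and cell type cannot be told apart for them. Untreated animals were not analysed here, so a high or low level is a level in treated mice and not a response to IFNg. In a sorted population, fewer cells that express a gene and less RNA per cell cannot be told apart.

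The median intensity of an array lay between 138.5 and 151.0, and Pearson's r between the arrays of 1 population between 0.990 and 0.996. Marker genes fitted the labels of DC, GN, MF and NK: all 8 DC, 10 GN, 8 MF and 7 NK markers measured were highest in their own population. Of the T cell populations, 2 of 4 T4, 2 of 3 T8, 4 of 5 Treg, 1 of 3 NKT and 1 of 2 Tgd markers were highest in their own, the rest being markers that these cells share with each other or with NK; the gamma delta receptor genes were not measured. DC replicate 2 stood apart. Its 10 granulocyte markers had a mean log2 intensity of 10.90, against 8.90 on DC replicate 1, 12.77 and 12.99 on the GN arrays and at most 6.54 on the arrays of the other 7 populations, and its 4 measured monocyte markers had a mean of 9.95 against 8.82. The summed intensity of the granulocyte markers was 6357 and 22364 on the DC arrays, 73231 and 84160 on the GN arrays and at most 1879 elsewhere. Their part in the DC values below was not tested.

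The promoters of the 4 genes are shown for the ISRE-like matches in their RefSeq windows. Sequences are the 250 bases before the transcript start in RefSeq (GRCm38.p6), 5′ to 3′ on the strand of the gene, with each match to an ISRE-like motif in capitals; the motif is GAAA, any 2 bases and GAAA again, on either strand. The window of Ifit1 is chr19:34640639-34640888 (plus strand), that of Ifit3 chr19:34583279-34583528 (plus strand), that of Rsad2 chr12:26456453-26456702 (minus strand) and the first of Ifit2 chr19:34550444-34550693 (plus strand). The window of Cmpk2, the gene beside Rsad2, is chr12:26468965-26469214 (plus strand) and is shown because its levels are compared with those of Rsad2.
Ifit1: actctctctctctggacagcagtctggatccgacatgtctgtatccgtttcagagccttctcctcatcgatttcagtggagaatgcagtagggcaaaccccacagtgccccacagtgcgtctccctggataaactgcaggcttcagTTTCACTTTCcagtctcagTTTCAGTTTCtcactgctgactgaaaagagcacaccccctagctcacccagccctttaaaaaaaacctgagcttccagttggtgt
Ifit3: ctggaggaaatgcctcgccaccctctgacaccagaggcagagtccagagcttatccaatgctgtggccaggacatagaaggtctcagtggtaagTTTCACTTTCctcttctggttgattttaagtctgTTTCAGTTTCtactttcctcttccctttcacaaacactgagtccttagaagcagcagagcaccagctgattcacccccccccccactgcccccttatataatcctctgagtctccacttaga
Rsad2: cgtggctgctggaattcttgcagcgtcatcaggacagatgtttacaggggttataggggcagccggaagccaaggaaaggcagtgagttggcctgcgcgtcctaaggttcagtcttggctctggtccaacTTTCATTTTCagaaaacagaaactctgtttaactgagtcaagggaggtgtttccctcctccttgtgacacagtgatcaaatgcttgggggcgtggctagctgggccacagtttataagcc
Ifit2: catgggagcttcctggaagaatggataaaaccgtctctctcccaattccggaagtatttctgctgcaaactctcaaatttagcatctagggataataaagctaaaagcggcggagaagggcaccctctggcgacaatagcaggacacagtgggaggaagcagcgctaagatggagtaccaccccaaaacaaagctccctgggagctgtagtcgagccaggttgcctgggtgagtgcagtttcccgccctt
Cmpk2: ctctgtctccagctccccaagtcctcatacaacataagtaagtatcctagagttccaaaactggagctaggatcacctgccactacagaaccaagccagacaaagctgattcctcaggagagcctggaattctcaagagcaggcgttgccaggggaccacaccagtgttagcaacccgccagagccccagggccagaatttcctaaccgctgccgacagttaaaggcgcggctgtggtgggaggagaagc

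Ifit1 and Ifit3 each hold 2 ISRE-like matches. In Ifit1 they lie 104 to 95 and 85 to 76 bases before the start, and in Ifit3 they lie 156 to 147 and 122 to 113 bases before it. The letters of both pairs are the same, TTTCACTTTC followed by TTTCAGTTTC. Rsad2 holds 1 match, TTTCATTTTC, 120 to 111 bases before its start. No match was found in either of the RefSeq windows of Ifit2, the second of which is chr19:34550838-34551087, nor in Cmpk2. Which start of Ifit2 these cells use was not tested, so the promoter they use may lie outside these windows. The GAS-like motif TTCNNNGAA occurs once, in the first Ifit2 window, and in no window of the other 3 genes. Over all 32851 promoter windows of this length, 2.98% hold the ISRE-like motif and 7.02% hold TTCNNNGAA. Among the antiviral genes described below, 8 of the 28 with a window hold the ISRE-like motif, as do 10 of 18 genes of the IFNg-responsive list. Counted by gene in the same way, 936 of all 27025 genes with a window (3.46%) hold it. The GAS-like motif is held by 5 of the 28 antiviral genes and 8 of the 18 IFNg-responsive genes, against 2197 of all genes (8.13%). A match is a description of the letters and not a binding site, and a window without one says nothing of the factor.

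Levels are log2 intensities, and n is 2 arrays per population wherever an SD is given; because each probe set has its own brightness, only differences, never levels, are compared between genes. Across the 9 populations the 4 genes shared an outline: GN were highest in each, and the lowest rank fell to MF or NK. The range of population means was 4.52 for Ifit1, 5.05 for Ifit2, 4.90 for Ifit3 and 5.29 for Rsad2, on a log2 scale on which the median gene ranged over 0.71. These ranges ranked 534, 377, 420 and 310 among the 19752 genes, so other genes differed more between these populations.

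**Figure D1:**
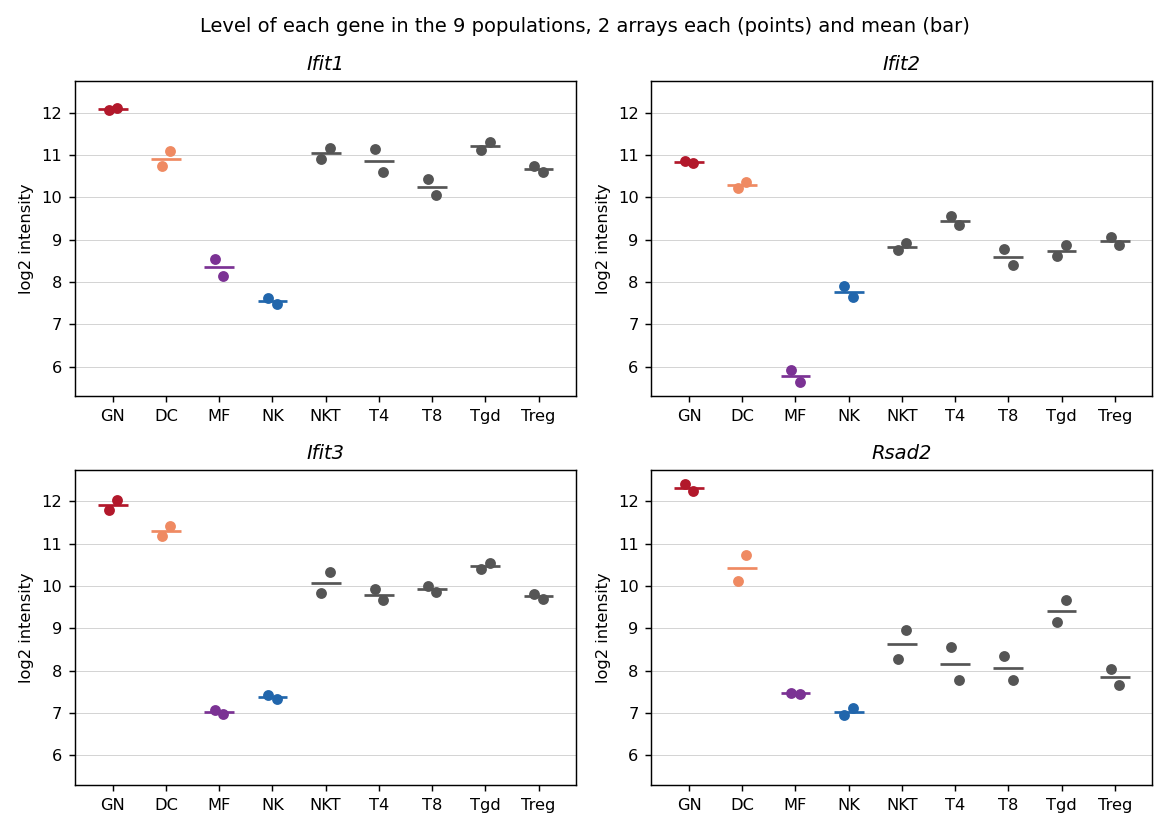
Log2 intensity (vertical axis) of Ifit1, Ifit2, Ifit3 and Rsad2 in the 9 populations (horizontal axis), with each of the 2 arrays as a point and their mean as a bar. GN lie at the top of each panel, and MF and NK at the bottom, where Ifit2 separates MF (5.93 and 5.64) from NK (7.90 and 7.64).

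Ifit1 stood at 12.06 and 12.10 on the GN arrays and at 7.62 and 7.49 on the NK arrays. MF lay at 8.55 and 8.14. The other 6 populations formed a band, from 10.05 on the lower T8 array to 11.30 on the higher Tgd array, that overlapped neither GN nor MF and NK. Within that band the order was Tgd (11.21 ± 0.13), NKT (11.04 ± 0.18), DC (10.92 ± 0.24), T4 (10.86 ± 0.39) and Treg (10.67 ± 0.09), of which no neighbours differed beyond their spread, followed by T8 (10.25 ± 0.28). Neighbours are said not to differ beyond their spread where their arrays overlap or their means differ by less than the residual SD of the gene. By that measure MF and NK differed for Ifit1, with MF 0.79 above NK.

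Ifit2 had another bottom rank. It stood at 5.93 and 5.64 in MF, below 7.90 and 7.64 in NK, and the 2 pairs of arrays did not overlap. GN reached 10.85 and 10.82, and DC followed closely at 10.22 and 10.35. T4 lay next at 9.45 ± 0.15, beyond the spread of Treg (8.97 ± 0.14), NKT (8.84 ± 0.12), Tgd (8.75 ± 0.18) and T8 (8.59 ± 0.26), whose neighbours in the order overlapped. NK lay 0.82 under T8 for this gene, and MF a further 1.98 under NK.

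Ifit3 stood at 11.80 and 12.04 in GN and at 11.18 and 11.41 in DC. At the bottom, MF (7.06 and 6.98) and NK (7.42 and 7.34) lay 0.36 apart, a gap that is over the residual SD of 0.16 but small beside the drop of 2.37 from the lowest T cell population to NK. The 5 T cell populations lay between, from Tgd at 10.48 ± 0.10 to Treg at 9.76 ± 0.09. From NKT through T8 and T4 to Treg, each step of the order was within the spread.

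Rsad2 was the most unequal of the 4 at the top. GN stood at 12.41 and 12.24, well above DC at 10.12 and 10.74, so that 1.90 separated the first rank from the second. For the 3 Ifit genes the gap under GN was between 0.55 and 0.87. Tgd (9.15 and 9.68) lay above NKT (8.27 and 8.97), and NKT, T4, T8 and Treg overlapped from neighbour to neighbour. Of the plasmacytoid dendritic cell markers, Siglech stood in Tgd at 6.67 ± 0.13, within the 6.32 to 6.74 of the other populations outside DC. Tcf4 (8.57 ± 0.00) and Ccr9 (12.22 ± 0.07) were higher in Tgd than in the other T cells, and Bst2 (9.11 ± 0.08) lay near T8 (9.08 ± 0.02). The 7 B cell markers had means of 7.89 and 8.12 on the Tgd arrays, 8.54 and 8.55 on the DC arrays and 7.34 and 7.74 on the NK arrays. In the other T cells these means lay between 6.62 and 7.22. The 6 eosinophil and mast cell markers had means of 6.22 and 6.12 in Tgd, against 5.51 to 5.64 in the other T cells. The part of other cells in the Tgd, DC and NK levels was not tested. For Rsad2, MF (7.48 and 7.45) and NK (6.96 and 7.11) were lowest again, but the drop to them was shallow, since Treg, at 7.86 ± 0.26, lay 0.39 above MF.

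Against the mean of the other 8 populations, GN were higher by 1.97 ± 0.14 (log2 difference ± SE) for Ifit1, which is 3.93-fold. The same difference was 2.28 ± 0.11 for Ifit2 and 2.45 ± 0.11 for Ifit3. For Rsad2 it was 3.94 ± 0.21, a 15.4-fold difference and the largest of the 4. The difference of MF from the other 8 was -2.23 ± 0.14 for Ifit1, -3.40 ± 0.11 for Ifit2 and -3.06 ± 0.11 for Ifit3, and a smaller -1.52 ± 0.21 for Rsad2. MF were thus 10.5-fold lower for Ifit2 and 2.87-fold lower for Rsad2. In NK the order of the genes was another: NK lay below the other 8 by 8.65-fold for Ifit1, 6.29-fold for Ifit3, 4.01-fold for Rsad2 and 2.25-fold for Ifit2. Ifit2 was thus the gene with the largest difference in MF and the smallest in NK.

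**Figure D2:**
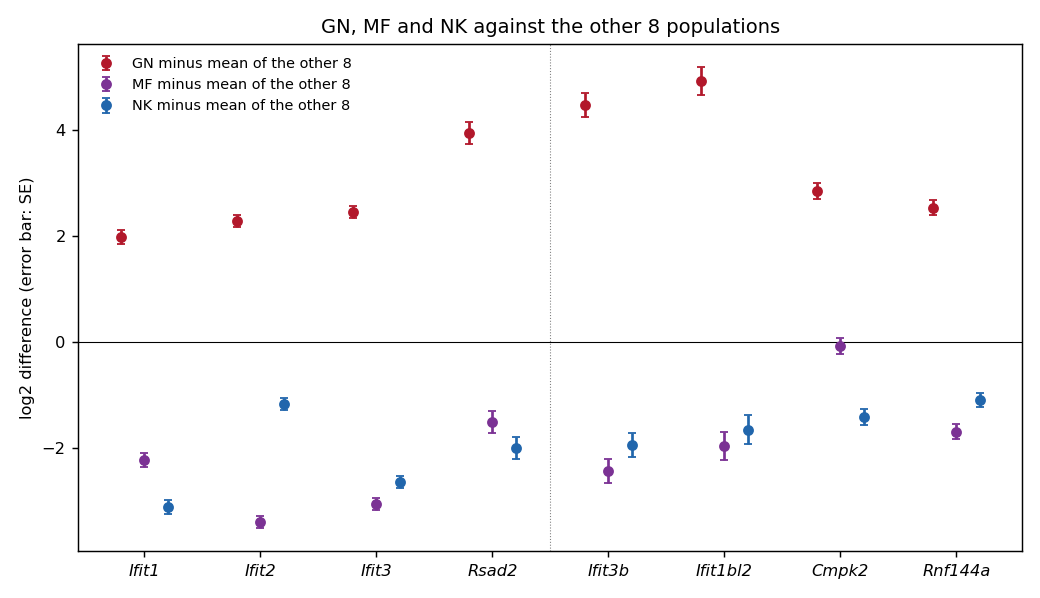
Log2 difference (vertical axis; error bars are the SE from limma) of GN, MF and NK from the mean of the other 8 populations, for the 4 genes and, right of the dotted line, for Ifit3b, Ifit1bl2, Cmpk2 and Rnf144a. GN lie above 0 for all 8 genes shown, and MF lie at or below -1.52 for all of them but Cmpk2, at -0.08.

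The profiles of the 4 genes over the 9 population means were alike to different degrees. Pearson's r was 0.94 for Ifit1 with Ifit3, 0.92 for Ifit2 with Ifit3 and 0.81 for Ifit1 with Ifit2. Rsad2 lay closest to Ifit3 (r = 0.85) and farther from Ifit2 (0.77) and Ifit1 (0.75). These r are descriptions over 9 means that share the same arrays, and carry no test. The 4 genes also moved together between the arrays of a population: all 4 were higher on the second array of DC, NKT and Tgd, and all 4 were lower on the second array of MF, T4, T8 and Treg. The widest such shift was -0.78, for Rsad2 in T4, and in DC, where the second array carried the granulocyte markers named above, it lay between 0.13 (Ifit2) and 0.62 (Rsad2). The second array was replicate 2 of DC, GN and NKT and replicate 3 of the other populations. All 4 genes were thus higher on replicate 2 than on the other array in DC, NKT, MF, T4, T8 and Treg. In Tgd all 4 were lower on replicate 2, and GN and NK were mixed. The part of the replicate number in these shifts was not tested.

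The other Ifit genes of the mouse lie between Ifit3 and Ifit1 on chromosome 19, in the order Ifit2, Ifit3, Ifit1bl1, Ifit3b, Ifit1bl2, Ifit1. The promoter of Ifit3b is a near copy of that of Ifit3, with 259 of 274 aligned bases (94.5%) identical. Their transcripts and probes were not compared. Part of the signal of one probe set may come from transcripts of the other, which was not tested. The second promoter window of Ifit1bl2 overlaps that of Ifit1 on the opposite strand, and its 2 ISRE-like matches are the same bases as those of Ifit1. Ifit1bl1 was not measured. In level, Ifit3b stood at 9.87 and 10.20 in GN, at 7.54 and 8.10 in DC, at 3.91 and 3.88 in MF and at 4.14 and 4.51 in NK. Its 4 lowest arrays were thus those of MF and NK, which lay below all arrays of the 5 T cell populations (4.77 to 6.47). Ifit1bl2 stood at 11.37 and 11.78 in GN, at 5.17 and 5.74 in MF and at 5.72 and 5.75 in NK. In DC it was split, with 6.92 on replicate 1 and 8.65 on replicate 2.

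Both measured paralogs passed the test over the 9 populations. Passing required a Benjamini-Hochberg adjusted p below 0.05 in limma, taken over all genes, together with a 2-fold or larger difference (for the test over the 9 populations, a range of that size), and 39.0% of all genes met it there. Both passed as higher in GN, where 7.03% of all genes did, Ifit3b by 4.47 ± 0.23 (adjusted p = 1.11e-11) and Ifit1bl2 by 4.92 ± 0.27 (adjusted p = 2.83e-11). In MF both passed as lower (4.19% of all genes), Ifit3b by -2.44 ± 0.23 and Ifit1bl2 by -1.97 ± 0.27 (adjusted p = 6.45e-08 and 7.62e-06 in limma). Both also passed as lower in NK (2.62% of all genes), with differences of -1.95 ± 0.23 and -1.66 ± 0.27 (adjusted p = 2.61e-06 and 0.000109 in limma). The direct difference of MF from NK was -0.43 ± 0.30 for Ifit3b and -0.28 ± 0.36 for Ifit1bl2, and neither passed in either direction (7.98% of all genes passed as higher and 5.12% as lower; neither had an unadjusted p under 0.05 in limma).

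The genes beside the Ifit cluster had mixed profiles. Ch25h and Lipa lie on the side of Ifit2, with Fas beyond them, and Slc16a12, Pank1 and Kif20b on the side of Ifit1. Of 8 genes of this region (these 6, Acta2 and Stambpl1), 5 passed over the 9 populations. In GN 2 passed as higher and 2 as lower (11.7% of all genes passed as lower): Fas, a death receptor, by 2.77 ± 0.10, and Acta2, a smooth muscle actin, by 2.54 ± 0.16, against -1.20 ± 0.14 for Pank1 and -1.20 ± 0.08 for Stambpl1. In NK, Fas (-2.32 ± 0.10) and Lipa (-1.09 ± 0.12) passed as lower (adjusted p = 7.06e-12 and 9.38e-07 in limma), and in MF Stambpl1 did (-1.12 ± 0.08, adjusted p = 2.24e-09 in limma). Ch25h and Slc16a12 ranged over 0.43 and 0.36 between populations, and Lipa, a lysosomal lipase, was higher in MF (1.04 ± 0.12, adjusted p = 6.37e-07 in limma; 7.56% of all genes passed as higher), where Ifit2 was lowest.

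Rsad2 lies on chromosome 12 between Rnf144a, which encodes a ubiquitin ligase, and Cmpk2, which encodes a mitochondrial kinase of UMP and CMP. Cmpk2 followed Rsad2 in GN (11.75 and 11.74), in DC (9.45 and 10.10) and in NK (7.98 and 7.90), and r between both genes over the 9 means was 0.92. MF differed between the genes. Cmpk2 stood there at 9.23 and 9.05, behind GN, DC and Tgd in the order of populations and not beyond the spread of T4 (8.88 ± 0.34). Rsad2 in MF lay below every T cell array. The rank of NKT differed too, 4 for Rsad2 and 8 for Cmpk2, though its arrays overlapped those of T4 and of Treg beside it. Against the other 8 populations, Cmpk2 was higher in GN by 2.85 ± 0.15 (adjusted p = 2.46e-11) and lower in NK by -1.42 ± 0.15 (adjusted p = 1.08e-06 in limma), and its difference in MF was -0.08 ± 0.15. Cmpk2 was higher in MF than in NK by 1.19 ± 0.20 (adjusted p = 0.000122 in limma), whereas the same difference for Rsad2 was 0.43 ± 0.28. Rnf144a, on the other side, was higher in GN by 2.53 ± 0.14 and lower in MF by -1.70 ± 0.14 (adjusted p = 2.63e-11 and 9.87e-09 in limma). It was lower in NK as well, by -1.10 ± 0.14 (adjusted p = 6.04e-06 in limma).

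**Figure D3:**
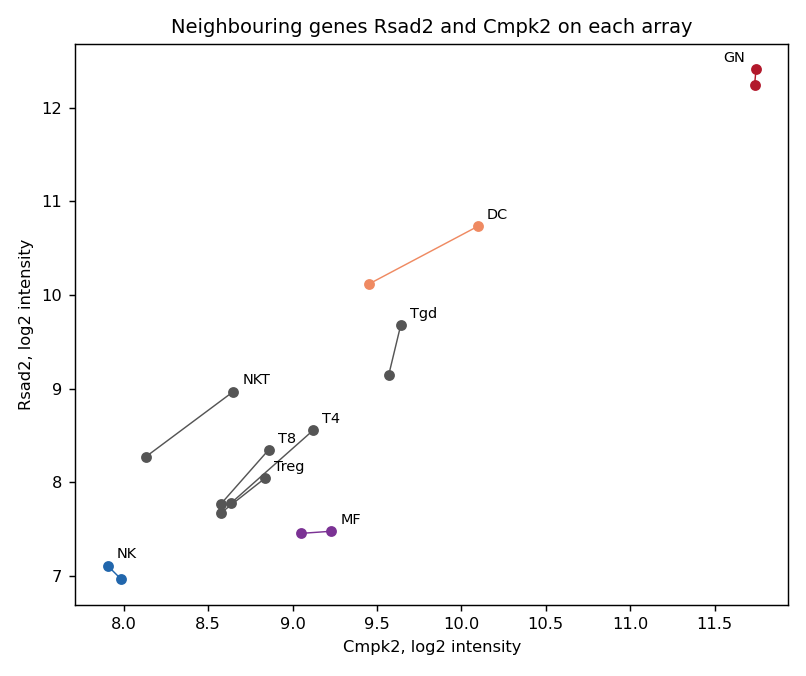
Log2 intensity of Rsad2 (vertical axis) against that of its neighbour Cmpk2 (horizontal axis) on each of the 18 arrays, with the 2 arrays of a population joined by a line. GN lie at the top right and NK at the bottom left, and the MF arrays, with Cmpk2 at 9.23 and 9.05, lie under the T4, T8 and Treg arrays in Rsad2.

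The low level of the 4 genes in MF was set beside a list of 40 other antiviral interferon-stimulated genes, of which 36 were measured. Over the 9 populations 34 of the 36 passed, with a median range of 2.79 against 0.71 for all genes. The largest ranges were those of Ifitm3, which keeps viruses from fusing with membranes (6.65), Slfn5 (5.86) and Oas2, a sensor of double-stranded RNA (5.53). Ifi44l (0.36) and Bst2, or tetherin (0.83), did not pass, and Helz2 had the smallest range among those that did (1.30). Bst2 missed the 2-fold threshold alone (adjusted p = 9.46e-05 in limma). In GN 21 passed as higher and 2 as lower, with a median difference of 1.15 against 0.13 for all genes. Ifitm3 (4.09 ± 0.19), Oasl2 (3.17 ± 0.12) and Oas3 (2.91 ± 0.16) led. Mx1 and Mx2, of the dynamin-like GTPase family, were lower in GN by -1.87 ± 0.18 and -1.72 ± 0.22 (adjusted p = 7.63e-08 and 2.66e-06 in limma), opposite to the 4 genes. Their levels in GN were 6.13 ± 0.30 and 5.28 ± 0.00. Transcript levels do not show whether a working protein is made.

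In MF, 6 of the 36 antiviral genes passed as higher and 1 as lower (14 were higher and 10 lower at an unadjusted p under 0.05), and the median difference from the other 8 populations was 0.00, against -0.08 for all genes. After quantile normalization the same counts were 5 and 2. The gene that passed as lower was Oasl1, a regulator of Irf7 translation, by -1.78 ± 0.14 (adjusted p = 6.86e-09 in limma). Ifitm3 (3.99 ± 0.19), Phf11d (3.68 ± 0.08) and Oas2 (1.63 ± 0.12) were the most raised. In NK, 26 of the 36 passed as lower, with a median of -1.42 against -0.02 for all genes. None passed as higher in limma, or had an unadjusted p under 0.05 in that direction, where 2.45% of all genes passed as higher. Slfn5 (-3.84 ± 0.14), Oas2 (-3.47 ± 0.12) and Parp12 (-3.16 ± 0.13) were the lowest, differences of a size with that of Ifit1 in NK (-3.11 ± 0.14).

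MF were also compared directly with NK. Of the 36 antiviral genes, 24 passed as higher in MF and none as lower in limma (1 was lower at an unadjusted p under 0.05), and 33 of 36 had a difference above 0, with a median of 1.24. Ifitm3 (5.78 ± 0.26), Phf11d (4.80 ± 0.11) and Slfn5 (4.58 ± 0.18) led. The 4 genes gave 0.79 ± 0.18 (Ifit1), 0.43 ± 0.28 (Rsad2), -0.36 ± 0.15 (Ifit3) and -1.98 ± 0.15 (Ifit2). The lowest value on the antiviral list was -0.50, for Oasl1, and 11 of the 36 lay below Ifit1.

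DC and the T cells gave further references, taken after the levels had been seen. The difference of MF from DC was -2.57 for Ifit1, -2.96 for Rsad2, -4.28 for Ifit3 and -4.50 for Ifit2. The antiviral list had a median of -0.58 in this difference, and its lowest gene, Oasl1, stood at -2.27, above each of the 4 genes. With DC replicate 1 alone, the differences of the 4 genes lay between -4.44 (Ifit2) and -2.40 (Ifit1), the list median was -0.51 and Oasl1 stood at -1.98. Against the mean of the 5 T cell populations, the difference of MF was -3.13 for Ifit2, -2.99 for Ifit3, -2.46 for Ifit1 and -0.96 for Rsad2, while 22 of the 36 antiviral genes lay above 0 and the median was 0.06. The difference of NK from those T cells was -3.25 for Ifit1, -2.63 for Ifit3, -1.39 for Rsad2 and -1.15 for Ifit2, and here 34 of the 36 lay below 0, with a median of -1.05. In this difference 15 of the 36 lay below Ifit2. Since the 4 genes were picked for being low in MF and NK, their place beside the list is a description.

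**Figure D4:**
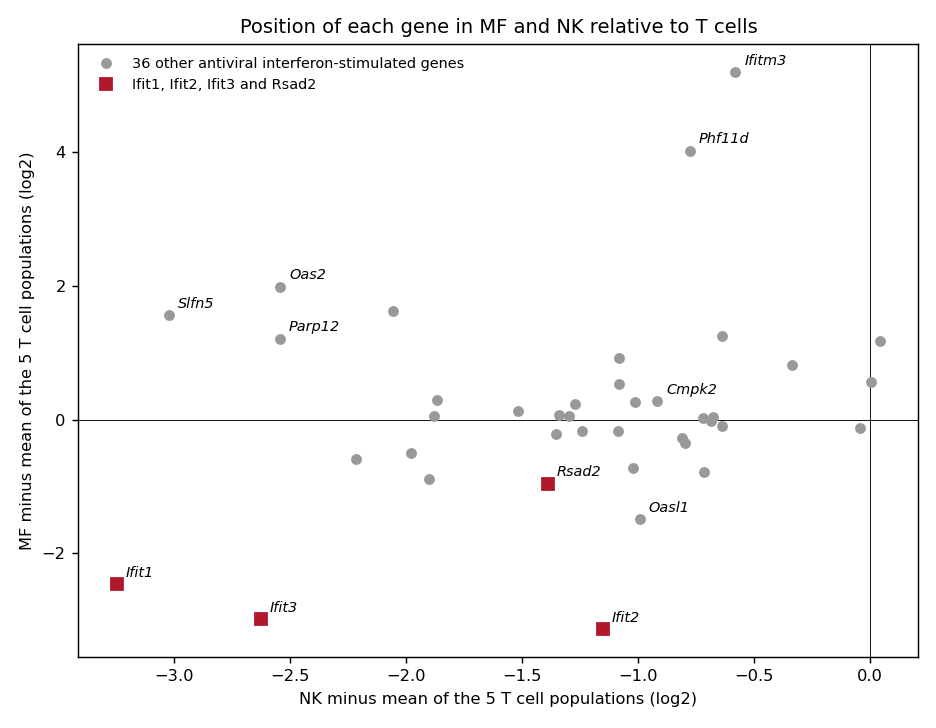
Log2 difference of MF (vertical axis) against that of NK (horizontal axis), each from the mean of the 5 T cell populations, for the 4 genes (squares) and 36 other antiviral interferon-stimulated genes (circles). Ifit1, Ifit2 and Ifit3 lie at or below -2.46 on the vertical axis, under every circle, and Rsad2, at -0.96, has 1 circle below it, Oasl1 at -1.49.

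A second list held genes that respond to IFNg, and 8 of them were higher in MF. Of 18 measured (21 listed), all passed over the 9 populations, with the largest ranges for the chemokine Cxcl9 (5.95), the guanylate-binding protein Gbp2b (5.68) and Ciita, the master regulator of MHC class II (5.14), and the smallest for Psmb8 (1.26), Nlrc5 (1.29) and Tap1 (1.59), genes of MHC class I presentation. In MF 8 passed as higher and none as lower in limma (3 were lower at an unadjusted p under 0.05), led by Gbp2b (4.56 ± 0.11), Fcgr1, a high-affinity IgG receptor (3.66 ± 0.19), and Iigp1, an immunity-related GTPase (2.25 ± 0.14). In GN 10 passed as higher, led by Cxcl9 (2.47 ± 0.23), Gbp5 (2.20 ± 0.10) and Cxcl10 (2.13 ± 0.29), and 1 as lower, Iigp1 (-1.39 ± 0.14). In NK 12 passed as lower, with Iigp1 (-3.44 ± 0.14), Cd274 (-2.29 ± 0.07) and Irgm1 (-2.28 ± 0.08) the lowest. Between MF and NK, 13 passed as higher in MF.

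Among the interferon ligands, the cytokine that was injected was the one that passed. Of 8 measured interferon genes 1 passed over the 9 populations, Ifng itself. It stood at 12.14 ± 0.28 in NK and 11.57 ± 0.79 in NKT and at 6.31 ± 0.20 in MF. The Ifit1 levels beside these were 7.62 and 7.49 on the NK arrays, 10.91 and 11.16 on the NKT arrays and 8.55 and 8.14 on the MF arrays; the part of Ifng in them was not tested.

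Ifngr2, the signalling chain of the IFNg receptor, was lowest in NK and NKT. It had means of 7.16 ± 0.25 in NK and 7.30 ± 0.09 in NKT, against 9.60 to 11.45 in the other 7 populations. It passed as lower in NK (-3.01 ± 0.09, adjusted p = 6.98e-14 in limma). In NKT, Ifit3 stood at 10.08 ± 0.35 and Ifit1 at 11.04 ± 0.18, within the range of the other T cells, and the part of Ifngr2 in these levels was not tested. In MF, where the 4 genes were low as well, Ifngr2 stood at 10.57 ± 0.02, near T4 at 10.61 ± 0.12. The part of Ifngr2 there was not tested either. In GN it passed as higher (1.81 ± 0.09, adjusted p = 7.11e-12 in limma). Ifngr1, the chain that binds IFNg, ranged over 1.60 and was highest in NK (12.15 ± 0.08), with NKT at 11.63 ± 0.05 and MF lowest at 10.56 ± 0.26. It was lower in MF than in NK by -1.60 ± 0.11 (adjusted p = 8.58e-10 in limma). Ifnar1, a chain of the type I interferon receptor, did not pass over the 9 populations, as its range of 0.96 was under 2-fold (adjusted p = 3.56e-05 in limma). Ifnar2 passed (1.15) and was higher in MF than in NK by 1.01 ± 0.08. Jak1 and Jak2 passed as lower in MF, by -1.10 ± 0.06 and -1.11 ± 0.09 (adjusted p = 7.8e-11 and 1.18e-08 in limma), and Jak1 was lower in MF than in NK by -1.59 ± 0.08. Tyk2, which serves the type I receptor, passed as lower in GN (-1.49 ± 0.10) and as higher in NK (1.31 ± 0.10), opposite in both to the 4 genes. In all, 6 of the 7 receptor and kinase genes passed over the 9 populations.

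Of 8 measured STAT and IRF genes, 7 passed over the 9 populations. Stat2, the ISGF3 subunit that carries the activation domain, was higher in GN by 1.40 ± 0.09 and lower in NK by -1.78 ± 0.09 (adjusted p = 4.14e-10 and 9.24e-11 in limma). It stood at 10.84 ± 0.08 in MF, inside the range of T4 (10.69 ± 0.05) and Treg (11.00 ± 0.09), whereas Ifit1, Ifit2 and Ifit3 in MF lay below every array of both. Irf9, the DNA-binding subunit, ranged over 1.43, from 10.10 ± 0.03 in NK to 11.52 ± 0.09 in GN, and MF were second lowest at 10.55 ± 0.08. Its differences from the other 8 populations were 0.70 ± 0.07 in GN, -0.40 ± 0.07 in MF and -0.91 ± 0.07 in NK. Their adjusted p were 9.35e-08, 0.000116 and 1.54e-08 in limma, and MF lay 0.45 ± 0.09 above NK. All were under 2-fold, so no contrast of GN, MF or NK passed for Irf9. Irf7, which amplifies the interferon response, was higher in GN by 1.67 ± 0.09 and lower in NK by -1.05 ± 0.09, and its MF level of 10.64 ± 0.05 lay with T4 at 10.67 ± 0.06. Irf1 was higher in GN by 1.05 ± 0.08, lower in NK by -1.07 ± 0.08 and higher in MF than in NK by 1.36 ± 0.10. Irf5 and Irf8, factors of myeloid cells, passed as higher in MF by 2.41 ± 0.10 and 1.90 ± 0.12. In GN, Irf5 passed as higher (1.92 ± 0.10) and Irf8 as lower (-1.68 ± 0.12), and Irf8 passed as higher in NK (1.61 ± 0.12). Irf2 passed over the 9 populations with a range of 1.17 (adjusted p = 1.23e-06 in limma). No contrast of GN, MF or NK passed for it, as all were under 2-fold. Its differences were 0.68 ± 0.08 in GN, 0.37 ± 0.08 in MF and -0.25 ± 0.08 in NK (adjusted p = 5.89e-07, 0.000794 and 0.0237 in limma).

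Of 8 negative regulators 5 passed over the 9 populations and all 5 were higher in GN. Usp18, which removes ISG15 and restrains the type I receptor, was higher in GN by 1.18 ± 0.12 and lower in NK by -2.17 ± 0.12 (adjusted p = 1.87e-07 and 3.03e-10 in limma). Socs1 and Socs3, inhibitors of the JAK kinases, were higher in GN by 1.73 ± 0.12 and 2.59 ± 0.18 and lower in NK by -1.36 ± 0.12 and -1.24 ± 0.18. Ptpn1 and Ptpn6, phosphatases of this pathway, were higher in GN by 1.22 ± 0.08 and 1.30 ± 0.09. In MF 1 of the 8 passed, Socs3, as higher (1.48 ± 0.18, adjusted p = 1.75e-06 in limma). Usp18, Socs1, Socs3 and Ptpn6 were higher in MF than in NK by 1.47 ± 0.16, 1.89 ± 0.17, 2.42 ± 0.24 and 1.10 ± 0.12.

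**Figure D5:**
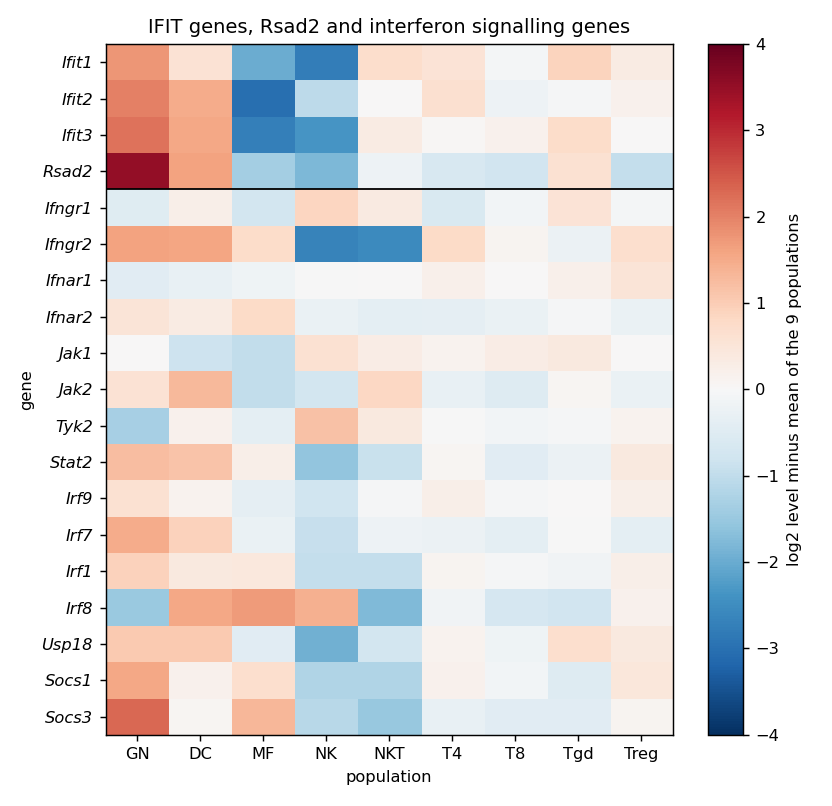
Log2 level minus the mean of the 9 population means (colour scale from -4 to 4) of the 4 genes, above the black line, and of 15 interferon signalling genes, for each population (horizontal axis). The columns of MF and NK are blue for the 4 genes, while Ifngr2 is blue in NK and NKT, with means of 7.16 and 7.30, and red in MF, with a mean of 10.57.

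Genes whose products act beside the IFIT proteins and viperin were examined as well. Of 5 listed genes of cap methylation, 3 were measured, and Cmtr1 and Ramac were not. Of the 3, 2 passed over the 9 populations, and both were lower in GN: Rnmt by -1.95 ± 0.17 and Cmtr2 by -1.33 ± 0.12 (adjusted p = 1.45e-08 and 3.61e-08 in limma). The third, Pcif1, did not pass (range 0.63), and its difference in GN was 0.19 ± 0.09. None of the 3 passed in MF or NK in limma (2 and 1 had an unadjusted p under 0.05). Of 9 genes for enzymes of nucleotide and sterol synthesis and other partners of viperin, 3 passed over the 9 populations, where 39.0% of all genes did: Cmpk1, Ctps and Fdps, with ranges of 1.35, 1.24 and 1.13. In MF 1 of them passed, Cmpk1, which phosphorylates UMP and CMP in the cytosol, as higher (1.00 ± 0.09, adjusted p = 2.93e-08 in limma), where 7.56% of all genes passed as higher (none of the 9 passed in GN or NK, where 8 and 3 had an unadjusted p under 0.05).

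The genes most like each of the 4 over the 9 population means were sought among the 7694 other genes that passed the test over the populations. For Ifit1 these were Helz2 (r = 0.96), Ifit3 (0.94), Oas1b (0.93), Etnk1 (0.93) and Adar (0.93). For Ifit2 they were Mpzl3 (0.96), Trim34a (0.94), Nfkbiz (0.93), Trim12a (0.93) and Crebl2 (0.93). For Ifit3 they were Trim12a (0.97), Trim34a (0.97), Vrk1 (0.95), Etnk1 (0.94) and Helz2 (0.94), so Trim12a and Trim34a, genes of the tripartite-motif family, stood on the lists of both Ifit2 and Ifit3. Rsad2 was most like Ifit3b (0.97), Irf7 (0.97), Trim12c (0.97), Mir107 (0.96) and Mpig6b (0.96). None of the 3 Ifit genes was among the 5 most like Rsad2, and Rsad2 was not among those most like them. Among them, Trim12a ranged over 1.67, from 9.72 ± 0.04 in MF to 11.39 ± 0.07 in GN, and Helz2 over 1.30, from 9.60 ± 0.04 in MF to 10.90 ± 0.01 in GN. Mpzl3, the gene most like Ifit2, was lowest in MF as well, at 5.79 ± 0.24, with NK at 7.06 ± 0.05.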

How the data were processed

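Values were deposited as linear intensity per probe set and array, made by the authors with RMA, which corrects the background, normalizes arrays and summarizes the probes of a set, in Affymetrix Power Tools per the submitters' processing notes; versions, and whether all 18 arrays were normalized together, are not given in the sources used here. Log2 of the deposited intensities was taken. Probe sets were named through the platform annotation, updated by Entrez number against RefSeq (GRCm38.p6): 21425 had 1 symbol, 1399 several and 2098 none, and genes were read from sets with 1 symbol, the brightest where a gene had several such sets. Differences were fitted with limma 3.58.1 (R 4.3.3; functions lmFit, contrasts.fit, eBayes; variance trend on), using all 18 arrays, a mean for each population and no covariate, and were tested on simulated data. Arrays are grouped by title, and no source says that they come from separate mice, so a p-value here measures the spread between arrays alone, and that spread may be technical; their number limits the precision. Contrasts that share arrays are given side by side and not compared.

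The 4 genes and all lists were chosen with earlier results of these data known. Named genes are the 4, their paralogs and neighbours, the 5 most like each, the signalling genes that passed, and of the antiviral and IFNg lists the 3 largest differences in each direction (over the 9 populations also the 3 smallest ranges). Cmpk2, Irf7 and Usp18 stand on the antiviral list as well as on a list of their own, and Irf1 and Socs1 on the IFNg-responsive one. Alternatives were quantile normalization, no trend, a filter on dim genes, all probe sets, array weights, no fold threshold, a replicate block and each array left out.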

Additional observations from a re-analysis of the deposited data

How the results depend on the processing

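Under quantile normalization, a filter on dim genes, limma without the variance trend, all probe sets of a gene, array weights and the replicate block, every total of genes passing, both directions together, stayed within 1.5 times (antiviral genes in MF split into 5 higher and 2 lower after quantile normalization, against 6 and 1), and no value of the 4 genes changed sign under any alternative run. Without the fold threshold, 13694 genes passed over the 9 populations, 12991 in GN, 9432 in MF, 5347 in NK and 7437 between MF and NK, because small differences then count, and 24 antiviral genes passed in MF. Quantile normalization moved the range of Ifit1 to 4.20, of Ifit2 to 4.80 and of Ifit3 to 4.62, and the GN difference to 1.63, 2.09 and 2.14; the cause was not tested. The genes most like a member depended on the measure: Spearman's rho over the 9 means shared 0 of the 5 for Ifit1, 2 for Ifit2, 0 for Ifit3 and 0 for Rsad2, and Pearson's r over the 18 arrays shared 3, 3, 3 and 2. The looser motif GAAANNGAA is held by 7.13% of promoter windows. With each array left out in turn, genes passing numbered 7684 to 7797 over the 9 populations, 3670 to 3732 in GN, 2282 to 2370 in MF, 989 to 1140 in NK and 2583 to 2710 between MF and NK, and antiviral genes in MF 5 (without MF replicate 2) to 7. Of same-numbered pairs of arrays, 19 of 54 deviated together with r over 0.1 (median r 0.08, from -0.20 to 0.47). Differently numbered pairs were not compared, so these values cannot show whether replicate numbers pair the arrays. With the replicate block, 7744, 3754, 2313, 1021 and 2592 genes passed in those 5 tests. Each of the 4 genes has 1 probe set, so another probe set could not be tried. Signal near background compresses differences in RMA, which limits the lowest levels.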
